A study of Mus musculus with 8 samples.

Results

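The genes described here are 7 genes of the two-cell-like state of mouse embryonic stem cells, namely Zscan4a, Zscan4c, Zscan4d, Zscan4f, Tcstv1, Tcstv3 and Zfp352. They were taken by exact match of the gene symbol, 7 of the 24306 symbols kept from each gene table. They were chosen with their levels in these libraries already known, so their own values are given below as a description, without a test. Poly(A) RNA was sequenced with a strand-marking kit in 8 libraries of E14, a mouse embryonic stem cell line, with 2 libraries in each of 4 groups. These were Wdr68 knockout embryonic stem cells (KO ESC), wild-type embryonic stem cells (WT ESC), knockout cells differentiated to neural progenitor cells (KO NPC) and wild-type cells differentiated the same way (WT NPC). Wdr68 is listed under its other symbol, Dcaf7, and codes for a WD40-repeat adaptor protein. All stem cells grew in serum with LIF and inhibitors of Mek and Gsk3, either on feeder fibroblasts or on gelatin. The progenitors came from embryoid bodies, which spent 2 days as hanging drops of 500 cells, 2 days floating free and 4 days in retinoic acid. How the knockout was made, how many clones it covers and whether the 2 libraries of a group came from separate cultures is not given in the sources used here. The p-values below therefore measure the spread between libraries, which may be technical.

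In a culture of mouse embryonic stem cells, a small and changing share of cells passes through a state that resembles the embryo at the two-cell stage. Such cells switch on genes that the embryo uses when it first activates its own genome, among them the Zscan4 genes, the Tcstv genes, Zfp352, the Usp17l genes and a family of Eif1a-like genes. The factor DUX binds the promoters of many of them and turns them on, DPPA2 and DPPA4 act upstream of Dux, and TRIM28, KDM1A, the chromatin assembly factor CAF-1, RIF1 and the Polycomb complex PRC1.6 keep the state rare. The Zscan4 genes code for proteins with a SCAN domain and zinc fingers that bind telomeres and are linked to telomere lengthening by recombination.

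The promoters of the Zscan4 genes are shown for their motif matches and their likeness. They lie before the transcript, so their likeness does not bear on how reads were assigned. The shared transcript sequence, which bears on the values of single Zscan4 copies, is given further below. RefSeq promoters of the mouse assembly GRCm38.p6 matched 4 of the 7 genes (Zscan4c, Zscan4d, Zscan4f and Zfp352). The 250 bases before the start of 3 of them read 5′ to 3′ on the gene's strand, with a pair of motif matches in capitals. Zscan4c is at chr7:11005495-11005744 on the plus strand, Zscan4d at chr7:11166149-11166398 on the minus strand and Zscan4f at chr7:11397665-11397914 on the plus strand.
Zscan4c: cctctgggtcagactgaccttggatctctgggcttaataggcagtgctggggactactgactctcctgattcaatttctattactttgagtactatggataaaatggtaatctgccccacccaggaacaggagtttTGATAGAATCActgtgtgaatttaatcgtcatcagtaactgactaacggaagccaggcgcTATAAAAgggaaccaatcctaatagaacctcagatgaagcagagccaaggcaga
Zscan4d: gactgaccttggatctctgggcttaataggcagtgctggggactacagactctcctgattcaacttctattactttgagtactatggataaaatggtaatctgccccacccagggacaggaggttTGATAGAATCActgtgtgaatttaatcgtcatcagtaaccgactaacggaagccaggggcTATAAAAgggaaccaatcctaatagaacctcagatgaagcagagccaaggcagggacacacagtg
Zscan4f: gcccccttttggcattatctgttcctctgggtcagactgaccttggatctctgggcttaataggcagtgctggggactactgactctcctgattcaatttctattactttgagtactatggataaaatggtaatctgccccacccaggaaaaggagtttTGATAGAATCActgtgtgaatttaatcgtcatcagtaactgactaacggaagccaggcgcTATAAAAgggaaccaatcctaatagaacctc
The first match in capitals holds, on the opposite strand, the paired half-sites of mouse DUX, TGATT and ATCA with any 2 bases between them. The second is TATAAAA, the TATA box. Each of these 3 promoters held 1 of each. The paired half-sites were present on either strand in 0.177% of the 32851 RefSeq promoters of the same length, and TATAAAA in 4.98% (3.02% on the gene's strand). The first base of TATAAAA lay 54 bases before the start in Zscan4c, 65 in Zscan4d and 31 in Zscan4f. TGCACAC, a motif bound by ZSCAN4 itself, was searched on both strands, was present in 3.67% of promoters and had no match in these. The Zfp352 promoter held no match to any of the 3 motifs. The Zscan4c and Zscan4f promoters were identical at 226 of the 227 bases that overlapped when aligned, and the promoters of Zscan4b, Zscan4c, Zscan4d and Zscan4f were 94.7% to 99.6% identical in pairs.

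The levels are in FPKM, fragments scaled to transcript length and to the mapped fragments of the library, as estimated by Cufflinks. Fragment numbers implied by the confidence intervals of the tables summed to between 5996677 and 7942644 per library. Dcaf7, the targeted gene, had 2.80 and 2.26 FPKM in KO ESC, against 12.4 and 14.2 FPKM in WT ESC. In the progenitors it had 8.36 and 8.99 FPKM in KO NPC, against 27.2 and 29.6 FPKM in WT NPC. It fell by 2.02 ± 0.12 in KO ESC and by 1.60 ± 0.12 in KO NPC on the log2(FPKM + 1) scale (limma, adjusted p = 0.0011 and 1.3e-04). The summed level of 7 stem cell markers was 2010 to 2039 FPKM in KO ESC and 2037 to 2074 FPKM in WT ESC, and none of the 7 passed the test between them. In NPC this sum was 9.87 to 10.7 FPKM in KO NPC and 36.4 to 40.1 FPKM in WT NPC, a gap made by Sox2, which is also a neural progenitor gene, as the other 6 summed to 7.40 to 9.55 FPKM in KO NPC and 6.42 to 9.77 FPKM in WT NPC. The sum of 7 neural progenitor markers was 36.8 to 37.7 FPKM in KO NPC and 339 FPKM in both WT NPC libraries, against 39.3 to 44.4 FPKM in the stem cells. The stem cell sum is mostly Tubb3, a tubulin gene of neurons, and the other 6 summed to 29.9 to 32.4 FPKM in KO NPC and 171 to 176 FPKM in WT NPC, against 3.12 to 4.95 FPKM in stem cells. Between KO NPC and KO ESC, 5 of the 7 rose and 2, Tubb3 and Sox1, fell, where 5537 of all 13318 genes rose and 3829 fell. Between KO NPC and WT NPC 6 of the 7 fell, where 12.7% of all genes fell. Feeder fibroblast markers (10 genes) summed to 1.84 to 2.26 FPKM in KO ESC and 2.06 to 2.68 FPKM in WT ESC, with 4 of 10 at 0 in each of these libraries, among them Lum, Postn and S100a4. Trophoblast markers (5 genes) summed to 32.5 to 33.0 FPKM in KO ESC and 30.1 to 31.7 FPKM in WT ESC, and extraembryonic endoderm markers (5 genes) to 0.767 to 1.54 FPKM in KO ESC and 1.16 to 1.64 FPKM in WT ESC. No gene of these 3 lists passed the test between knockout and wild-type stem cells. In progenitors the fibroblast sums were 83.8 and 71.2 FPKM in KO NPC, against 97.3 and 110 FPKM in WT NPC. In the same order, the trophoblast sums were 88.9 and 100 against 51.2 and 59.5 FPKM. The endoderm sums were 64.3 and 54.5 against 25.1 and 19.6 FPKM. The trophoblast sums were mostly Krt8, a keratin gene, with 85.7 and 95.8 FPKM in KO NPC, against 49.2 and 57.2 FPKM in WT NPC. Cdx2 and Elf5 also had higher means in KO NPC, and Eomes and Tfap2c lower ones. Between KO NPC and WT NPC, 5 of 8 fibroblast markers tested fell. Of 5 endoderm markers 2 rose and 1 fell, and of 4 trophoblast markers 1 rose, where 27.4% of all genes passed.

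In stem cells, each of the 4 Zscan4 genes had a 3.13-fold to 3.61-fold lower mean FPKM in knockout than in wild type, and in progenitors all 4 were near 0 in both genotypes. Zscan4f, one of the copies with a full-length open reading frame in mouse, had 1.18 and 1.21 FPKM in KO ESC, against 4.49 and 3.93 FPKM in WT ESC. It was the highest of the 4 in WT ESC, and its KO ESC mean was 3.53-fold lower (1.19 ± 0.0232 against 4.21 ± 0.396 FPKM, SD, n = 2 each). Zscan4c, another full-length copy and the one usually used to mark the state in reporter lines, had 0.924 and 1.21 FPKM in KO ESC, against 3.72 and 3.57 FPKM in WT ESC. Its KO ESC mean was 3.42-fold lower (1.07 ± 0.201 against 3.64 ± 0.102 FPKM). The libraries of the 2 genotypes did not overlap for either copy.

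Zscan4d, the copy that predominates in the mouse two-cell embryo, had 0.520 and 0.938 FPKM in KO ESC, against 1.88 and 2.68 FPKM in WT ESC. Its KO ESC mean was 3.13-fold lower (0.729 ± 0.296 against 2.28 ± 0.566 FPKM), with a larger SD than the other 3 genes in both groups. Zscan4a, which RefSeq lists as a transcribed pseudogene, had 0.570 and 0.747 FPKM in KO ESC, against 2.24 and 2.52 FPKM in WT ESC. Its KO ESC mean was 3.61-fold lower (0.658 ± 0.125 against 2.38 ± 0.197 FPKM). For all 4 genes both KO ESC libraries were below both WT ESC libraries, as were 24.7% of the 13318 genes tested, and for all 4 the mean was at least 3-fold lower, as for 2.33% of the genes tested. These shares are given as background only, since the genes were chosen on this contrast. The Cufflinks 95% intervals of the genotypes were apart for 3 of the 4 and overlapped for Zscan4d.

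**Figure D1:**
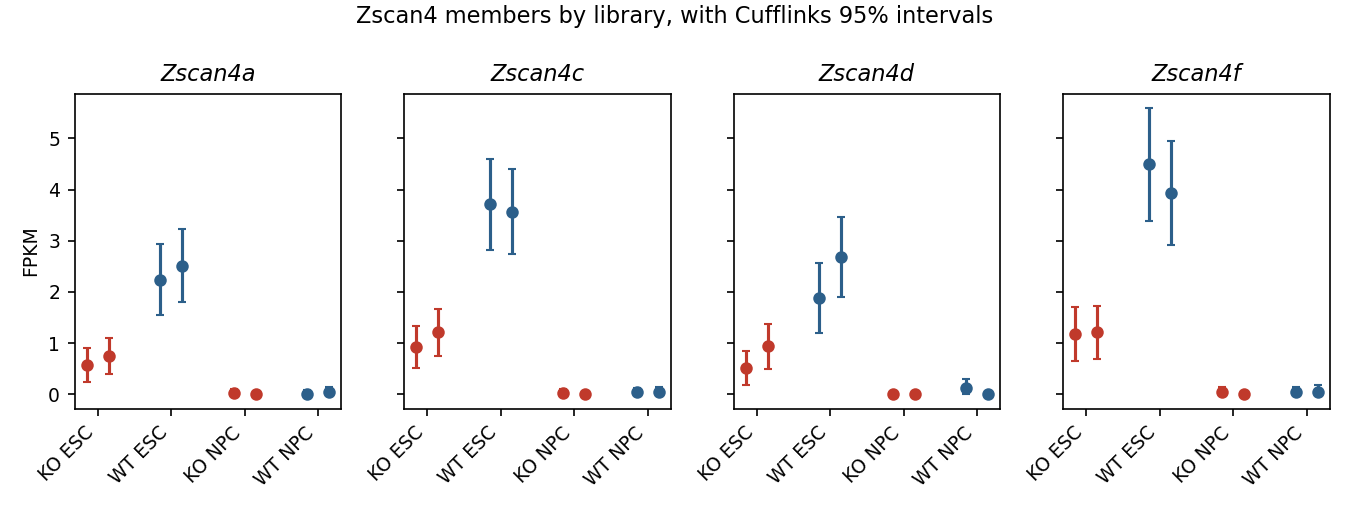
FPKM of Zscan4a, Zscan4c, Zscan4d and Zscan4f in each library, with the 2 libraries of a group side by side in red for knockout and blue for wild type. Points are library values and bars the 95% intervals that Cufflinks gave. The KO ESC points lie below the WT ESC points for each gene, and no NPC value exceeds 0.120 FPKM.

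On the log2(FPKM + 1) scale of the fit over all genes, the difference between KO ESC and WT ESC was -1.25 for Zscan4f, -1.17 for Zscan4c, -1.03 for Zscan4a and -0.92 for Zscan4d, and the median over all genes was -0.01. Counted from the most negative of the 13318 differences, these stood at ranks 41, 45, 54 and 69. The ranks are a description only, since the genes were chosen with these values known. Because 1 is added before the logarithm, this scale understates the change of genes at such low levels. On FPKM alone, the log2 ratio of the means ran from -1.85 for Zscan4a to -1.65 for Zscan4d. Of the 7 genes, 4 passed the filter of at least 1 FPKM in at least 2 libraries. Zscan4a and Zscan4d passed it through the WT ESC libraries alone, so their passing already required a difference between groups. In bulk RNA, fewer cells in the two-cell-like state and less Zscan4 RNA in each such cell cannot be told apart.

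The 5 listed Zscan4 copies lie within 608 kb of chromosome 7. In the mm9 coordinates of the tables these are Zscan4a at chr7:11379590-11384414, Zscan4b at chr7:11486089-11490399, Zscan4c at chr7:11591094-11595896, Zscan4d at chr7:11746992-11751497 and Zscan4f at chr7:11983264-11987667. The longest GENCODE transcripts of these 5 copies were 94.8% to 97.8% identical in pairs. A window of 50 bases of Zscan4f was found unchanged in another of the 9 annotated copies in 93.7% of cases, and of Zscan4b in 87.9%. The share was 85.5% for Zscan4c, 63.6% for Zscan4a and 49.6% for Zscan4d. A read inside such a window cannot be assigned to 1 copy. Because of these windows the split between copies is uncertain, and the levels of single copies are not independent of each other. Only 1 of the 20 implied fragment numbers of the 5 copies in stem cells was within 0.05 of a whole number. These numbers ran from 10.0 to 72.7. The share was 66.9% to 71.6% in each library among genes with under 5 implied fragments, an unlike range. Dcaf7, which is no Zscan4 copy, had a fractional 166.25 in a KO ESC library, so fractions at this level do not by themselves mark shared reads.

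The sum over Zscan4a, Zscan4c, Zscan4d and Zscan4f depends little on how fragments were divided among these 4, though fragments given to other copies are not in it. It was 3.19 and 4.10 FPKM in KO ESC, against 12.3 and 12.7 FPKM in WT ESC, and the means of 3.65 ± 0.645 and 12.5 ± 0.264 FPKM (SD, n = 2 each) differed 3.43-fold, lower in knockout. Each KO ESC library was 3.004-fold to 3.98-fold lower than each WT ESC library, while the 2 KO ESC libraries differed 1.29-fold and the 2 WT ESC libraries 1.03-fold. The sum rested on 62.5 and 86.6 implied fragments in KO ESC, against 208 and 231 in WT ESC. With Zscan4b, a further copy outside the 7 genes, added, the sum was 3.31-fold lower in KO ESC (4.57 ± 0.989 against 15.1 ± 0.426 FPKM).

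The share of each copy in the 5-copy sum was similar in the stem cell libraries of both genotypes. Zscan4f made up 23.0% and 30.5% in KO ESC and 25.5% and 30.3% in WT ESC. Zscan4c ranged from 22.9% to 25.1% over the 4 stem cell libraries, Zscan4b from 16.7% to 22.1%, Zscan4a from 14.2% to 16.3% and Zscan4d from 12.7% to 17.8%. These shares depend on how reads were split between copies, so no order of the genotypes was read from them.

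In progenitors the copies were at the limit of detection. Zscan4a had 0.0279 and 0 FPKM in KO NPC, against 0.00979 and 0.0400 FPKM in WT NPC. Zscan4c had 0.0277 and 0 FPKM in KO NPC, against 0.0356 and 0.0397 FPKM in WT NPC. Zscan4f had 0.0353 and 0 FPKM in KO NPC, against 0.0453 and 0.0506 FPKM in WT NPC. Zscan4d was listed at 0 in both KO NPC libraries, against 0.120 and 0 FPKM in WT NPC. In the first KO NPC library, Zscan4a, Zscan4c and Zscan4f were each worth 0.444 of a fragment. Of the 20 values of the 5 copies in progenitors, 7 were 0 and 10 of the other 13 rested on less than 1 implied fragment, so no order of the genotypes can be read from them at this depth.

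In both genotypes the Zscan4 genes were far lower in progenitors than in stem cells. The sum over the 4 genes was 0.211 and 0.130 FPKM in WT NPC, 73.4-fold lower than in WT ESC. In KO NPC it was 0.0909 and 0 FPKM, against 3.19 and 4.10 FPKM in KO ESC. On the log2(FPKM + 1) scale the differences between WT NPC and WT ESC ran from -2.31 to -1.62 and those between KO NPC and KO ESC from -1.11 to -0.71. In both genotypes the NPC libraries lay below the ESC libraries for all 4, as they did for 37.5% of all genes tested in wild type and for 35.5% in knockout, shares given as background only, since these 4 passed the filter through stem cells.

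Zfp352, a zinc finger gene with a peak in the mouse two-cell embryo, was barely detected in any group (mm9 chr4:89885511-89892378). It had 0.136 and 0 FPKM in KO ESC, against 0 and 0.0489 FPKM in WT ESC. In NPC it had 0.0418 and 0 FPKM in KO NPC and was listed at 0 in both WT NPC libraries. These values stand for 3 implied fragments in a KO ESC library and 1 each in a WT ESC and a KO NPC library, which is too few to compare groups.

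Tcstv1 and Tcstv3, a pair of genes first described in mouse two-cell embryos, were listed at 0 FPKM in all 8 libraries. Their only entries were on an unplaced contig of mm9, chrUn_random, at 37343 to 38736 for Tcstv1 and 3053 to 4452 for Tcstv3. All 147 entries on the 11 unplaced contigs of the tables were at 0 in every library, 30 of them on chrUn_random, whereas 63.7% to 68.7% of the 24707 entries elsewhere were above 0 in each library. The entries at 0 included Hmgcs1, an enzyme of sterol synthesis that cells use widely, and Mia3, a cargo receptor of collagen secretion, which are listed only on such contigs. The zeros of Tcstv1 and Tcstv3 therefore carry no measurement of either gene. In RefSeq GRCm38.p6 both genes are placed on chromosome 13.

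**Figure D2:**
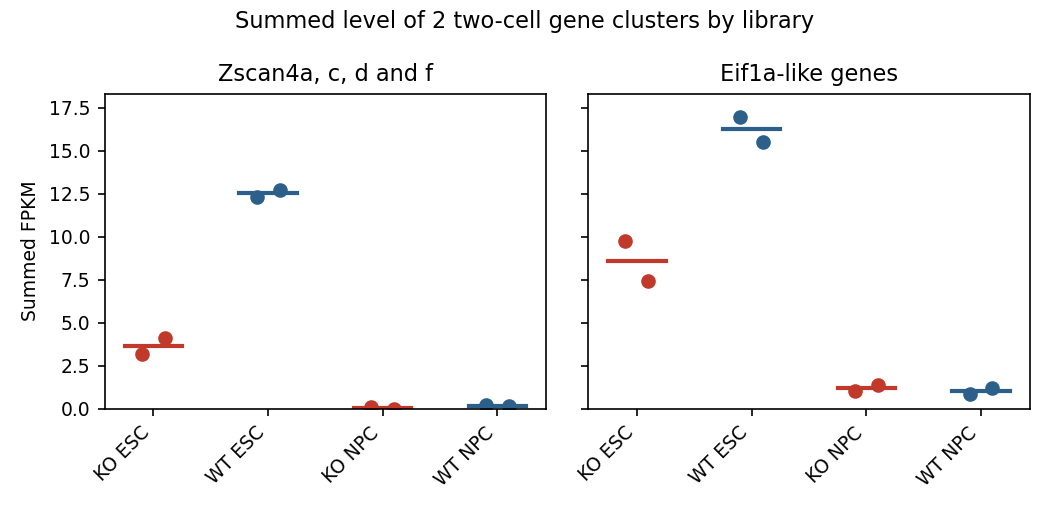
Summed FPKM by library of Zscan4a, Zscan4c, Zscan4d and Zscan4f (left) and of 6 Eif1a-like genes of chromosome 12 (right), both on the same axis, with points for libraries and lines for group means. Both sums are lower in KO ESC than in WT ESC, 3.65 against 12.5 FPKM on the left, and both are near 0 in all NPC libraries.

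The other genes of the two-cell state were read from a list of 54 symbols, of which 40 were listed in the tables and 10 passed the filter. None of the 10 passed the test between KO ESC and WT ESC (limma, adjusted p under 0.05), where 0.248% of all genes did. An unadjusted p under 0.05 was found for 6 of the 10, where 12.7% of all genes had one. These p-values use 1 spread for the 4 groups, and 9 of the 10 were under 1 FPKM in every NPC library. In the fit of these 2 groups alone the lowest adjusted p of the 10 was 0.332, for BB287469. The log2 differences of the 10 were all below 0, with a median of -0.56 against -0.01 over all genes. In 9 of the 10 both KO ESC libraries were below both WT ESC libraries, as in 24.7% of all genes. These counts are partly set by the filter, since Gm8300 reached 1 FPKM in no KO ESC library, and Zscan4b and Gm5662 in 1. The 10 include Zscan4b, which shares reads with the genes described above. Zscan4b had 0.675 and 1.16 FPKM in KO ESC, against 2.48 and 2.71 FPKM in WT ESC (log2 difference -0.92 ± 0.18 SE, adjusted p = 0.142). Without it, 0 of the other 9 passed.

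Of the 10, 6 are Eif1a-like genes, copies related to the translation initiation factor eIF1A that lie within 705 kb of mm9 chr12:88855266-89560206. BB287469, summed over its 2 entries, had 1.40 and 1.33 FPKM in KO ESC, against 2.88 and 3.17 FPKM in WT ESC. It had the lowest adjusted p of the list (log2 difference -0.77 ± 0.11, adjusted p = 0.0665, and 0.0613 to 0.340 over the alternatives). With only the higher entry kept in each library, the difference was -0.48 (limma, adjusted p = 0.201). Gm8300 had 0.667 and 0.470 FPKM in KO ESC, against 1.55 and 2.22 FPKM in WT ESC (-0.87 ± 0.14, adjusted p = 0.0892). Gm5662 had 1.14 and 0.771 FPKM in KO ESC, against 2.51 and 2.21 FPKM in WT ESC (-0.78 ± 0.13, adjusted p = 0.104). Gm2016 had 2.15 and 1.51 FPKM in KO ESC, against 3.49 and 3.33 FPKM in WT ESC (-0.65 ± 0.14, adjusted p = 0.179). The means of Gm5039 and Gm2022 were closer, with 2.21 against 3.13 FPKM and 1.66 against 2.43 FPKM in KO ESC and WT ESC (adjusted p = 0.405 and 0.463). For all 6 genes both KO ESC libraries were below both WT ESC libraries, as in 24.7% of all genes, though none passed the test. The sum of the 6 genes was 9.72 and 7.44 FPKM in KO ESC, against 16.97 and 15.52 FPKM in WT ESC, a mean 1.89-fold lower in KO ESC. These copies also share sequence. Among 5 of them, 80.0% of 50-base windows of Gm2016 and 76.2% of Gm5662 were found in another copy, and 20.6% of BB287469 and 21.1% of Gm8300. Gm2022 was not compared and BB287469 entered as 1 transcript, so the true shares may be higher.

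Of the other 3 genes of the list, Gm8994 had 3.50 and 4.04 FPKM in KO ESC, against 5.11 and 6.17 FPKM in WT ESC (adjusted p = 0.297). Pramel7, a gene of the PRAME family used in the inner cell mass of the mouse embryo, averaged 1.43 FPKM in KO ESC and 2.08 FPKM in WT ESC (adjusted p = 0.444). Pramel6, of the same family, had overlapping values of 3.62 and 5.01 FPKM in KO ESC, against 4.72 and 4.06 FPKM in WT ESC (adjusted p = 0.980).

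**Figure D3:**
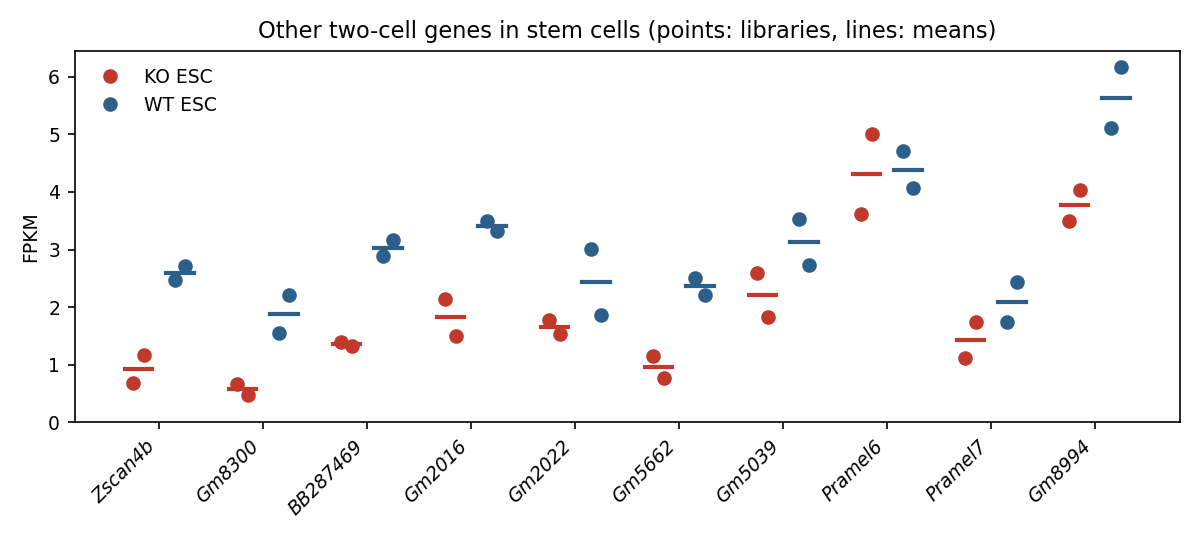
FPKM of the 10 other two-cell genes that passed the filter in the stem cell libraries, knockout in red to the left of wild type in blue, with points for libraries and lines for means. The KO ESC points lie below the WT ESC points in 9 of the 10 genes and overlap with them in Pramel6.

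In progenitors 9 of these 10 genes were under 1 FPKM in every library, with a highest value of 0.458 FPKM, so they had passed the filter through stem cells alone. Between KO NPC and WT NPC none of the 10 passed the test and 1 had an unadjusted p under 0.05, but genes this close to 0 in both groups could hardly pass. The exception in level was Gm8994, with 5.47 and 4.27 FPKM in KO NPC, against 2.94 and 3.48 FPKM in WT NPC (log2 difference 0.47 ± 0.16, adjusted p = 0.0624). Between WT NPC and WT ESC all 10 fell (median log2 difference -1.61), and between KO NPC and KO ESC 9 fell. For the 9 genes the filter largely fixed that direction, so nothing is read from the 31.1% of all genes that fell in wild type and the 28.8% in knockout. Gm8994 averaged 3.21 FPKM in WT NPC and 5.64 FPKM in WT ESC, and 4.87 FPKM in KO NPC and 3.77 FPKM in KO ESC (adjusted p = 0.129 in knockout). Without Zscan4b, 9 of 9 fell in wild type and 8 of 9 in knockout. The sum of the 6 Eif1a-like genes was 1.01 and 1.35 FPKM in KO NPC and 0.875 and 1.18 FPKM in WT NPC.

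The 5 genes outside the 7 whose pattern over the 8 libraries was closest to that of the Zscan4 genes were found by the root mean square difference between centred log2(FPKM + 1) profiles. They were Pnma5 (difference 0.108), BB287469 (0.139), Gm8764 (0.157), 1700001L05Rik (0.157) and Zscan4b (0.158). The 4 Zscan4 genes themselves lay between 0.0915 (Zscan4c) and 0.166 (Zscan4f) from their own mean profile. Pnma5 had 1.34 and 1.27 FPKM in KO ESC, against 3.20 and 3.28 FPKM in WT ESC, and 0.0772 to 0.116 FPKM in the NPC libraries. Gm8764 had 0.983 and 0.883 FPKM in KO ESC, against 3.01 and 2.53 FPKM in WT ESC. The gene 1700001L05Rik had 1.84 and 1.50 FPKM in KO ESC, against 3.98 and 3.73 FPKM in WT ESC. Since these genes were picked for their likeness, their values are a description, and 2 of the 5, BB287469 and Zscan4b, were already in the list of two-cell genes.

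The known regulators of the state were read from a list of 5 activators and 27 repressors, all of which passed the filter. In stem cells none of the 32 passed the test between knockout and wild type, 6 had an unadjusted p under 0.05, where 12.7% of all genes did, and the lowest adjusted p was 0.270. Of the activators, Dppa2 had 71.1 and 67.8 FPKM in KO ESC, against 74.3 and 66.3 FPKM in WT ESC (adjusted p = 0.990), and the genotypes overlapped. Its partner Dppa4 had 72.0 and 75.3 FPKM in KO ESC, against 63.7 and 60.5 FPKM in WT ESC (log2 difference 0.24 ± 0.11, adjusted p = 0.434). Of the repressors, Trim28, the corepressor KAP1, averaged 378 FPKM in KO ESC and 416 FPKM in WT ESC (adjusted p = 0.456). Kdm1a, the histone demethylase LSD1, averaged 48.9 FPKM in KO ESC and 58.2 FPKM in WT ESC (-0.24 ± 0.09, adjusted p = 0.329). Rif1, a telomere and replication-timing factor known to hold Zscan4 low in mouse stem cells, averaged 50.2 FPKM in KO ESC and 58.4 FPKM in WT ESC (adjusted p = 0.509). Pcgf6, the defining subunit of PRC1.6, averaged 26.6 FPKM in KO ESC and 30.1 FPKM in WT ESC (adjusted p = 0.510). A gap the size of that in the Zscan4 genes was seen in none of the 32, whose log2 differences ran from -0.34 to 0.24. Of these differences 25 were below 0. In 16 of the 32 both KO ESC libraries were below both WT ESC libraries, as in 24.7% of all genes. In 2 they were above, and in 14 the genotypes overlapped. The matching shares of all genes are not given for these counts, so no lean is read from them.

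**Figure D4:**
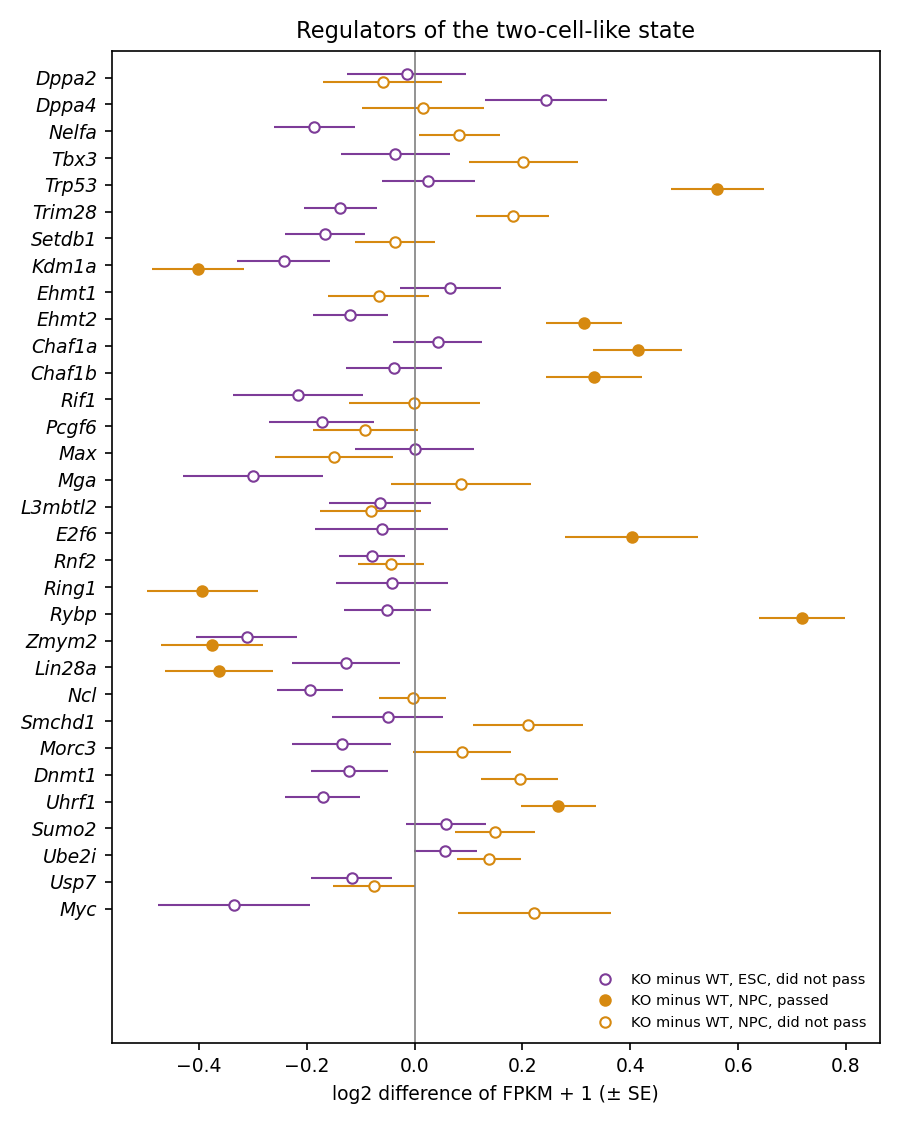
Log2 difference of FPKM + 1, knockout minus wild type, with its standard error for the 32 regulators, activators first, in stem cells (purple) and progenitors (orange). Filled points passed the test over all genes. In stem cells all points are open and lie between -0.34 and 0.24, and in progenitors 11 are filled.

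In progenitors 11 of the 32 regulators passed the test, 7 higher and 4 lower in knockout, where 27.4% of all genes passed. Over all genes, 1962 (14.7%) rose and 1686 (12.7%) fell, and with median-ratio scaling of the libraries 1377 rose and 1969 fell, with 7 regulators passing. Trp53, which codes for the activator p53, rose to 104 and 106 FPKM in KO NPC, against 70.5 and 71.3 FPKM in WT NPC (log2 difference 0.56 ± 0.09, adjusted p = 0.0033). Rybp, a subunit of variant PRC1 complexes, rose to 40.1 and 37.0 FPKM in KO NPC, against 24.2 and 21.9 FPKM in WT NPC (0.72 ± 0.08, adjusted p = 8.3e-04). Chaf1a, the large subunit of CAF-1 (0.41 ± 0.08, adjusted p = 0.0100), the histone methyltransferase gene Ehmt2 (adjusted p = 0.0160), and Uhrf1, a partner of the maintenance DNA methyltransferase (adjusted p = 0.0287) also rose, as did 2 more. Kdm1a fell to 40.1 and 37.5 FPKM in KO NPC, against 49.5 and 53.6 FPKM in WT NPC (-0.40 ± 0.09, adjusted p = 0.0136). Zmym2, a zinc finger gene of corepressor complexes, fell (-0.38 ± 0.09, adjusted p = 0.0244), as did 2 more. With 1 library left out, 3 to 5 regulators passed (5 without the first WT NPC library, 4 without the second, 3 without the first KO NPC library and 4 without the second). Zmym2 was lost with any of these left out, Ehmt2 and Uhrf1 with any but the second WT NPC library, Kdm1a without the second library of either group, and Chaf1a without the second WT NPC or the first KO NPC library. Ehmt2 and Uhrf1 were also lost with median-ratio scaling (adjusted p = 0.0588 and 0.109), and Uhrf1 in the fit of 2 groups, while Rybp and Trp53 passed throughout. Dppa2 and Dppa4 fell between ESC and NPC in knockout (adjusted p = 9.9e-08 for each) and in wild type (1.3e-07 for each), and neither exceeded 0.189 FPKM in any NPC library. The marker sums given above differ between KO NPC and WT NPC, and their part in these results was not tested.

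Telomere and recombination genes were read because Zscan4 proteins act at telomeres. None of the 12 that passed the filter, of 15 listed, passed the test between KO ESC and WT ESC, 2 had an unadjusted p under 0.05, again where 12.7% of all genes did, and the lowest adjusted p was 0.297. Terf1, a telomere-binding protein of the shelterin complex, had 63.5 and 63.9 FPKM in KO ESC, against 73.8 and 61.6 FPKM in WT ESC. In progenitors 4 of the 12 rose and none fell, where 14.7% of all genes rose and 12.7% fell, a balance that turns with median-ratio scaling, and 3 of the 4 are described. Blm, a helicase, averaged 17.1 FPKM in KO NPC and 12.9 FPKM in WT NPC (adjusted p = 0.0251). Terf1 averaged 16.1 FPKM in KO NPC and 12.2 FPKM in WT NPC (adjusted p = 0.0231). Atrx, a chromatin remodeller, averaged 33.0 FPKM in KO NPC and 25.4 FPKM in WT NPC (adjusted p = 0.0453). Median-ratio scaling ended all 3 calls (adjusted p = 0.0622 for Blm, 0.0716 for Terf1 and 0.102 for Atrx). Atrx was also lost with another pseudocount, with no filter, with the replicate block and in the fit of 2 groups, the last of which ended the call of Blm too. Leaving out either KO NPC library or the second WT NPC library ended the calls of Blm, Terf1 and Atrx, and leaving out the first WT NPC library ended that of Terf1, with highest adjusted p of 0.110, 0.106 and 0.207 over the alternatives. The Zscan4 genes themselves were near 0 in these libraries.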

How the data were processed

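Poly(A) RNA of 8 libraries in 4 groups was measured. Per the submitters' processing notes, reads were aligned to mm9 with TopHat2 2.1.1 and gene levels estimated with Cufflinks 2.2.1. What the authors deposited is FPKM per gene with a 95% interval, per the file headers, and no counts. How reads that match several places were treated is not given in the sources used here. Each table had 24854 entries. Entries of 1 symbol were summed, and the 12 symbols with a failed estimate in any library were left out, which left 24306. Fragment numbers were inferred from the distance of the upper interval bound to the FPKM, taken as 2 square roots of the number. Intervals and fragment numbers cover counting error only.

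The 13318 genes that reached 1 FPKM in 2 or more libraries entered a limma fit (limma 3.58.1, R 4.3.3) on log2(FPKM + 1), a pseudocount of 1. The fit had a mean for each of the 4 groups and a trend of variance with level, which left 4 residual degrees of freedom. A gene was called in a contrast when its two-sided p, adjusted by Benjamini and Hochberg's method over all genes, was under 0.05. Values after ± are SD for levels and SE for log2 differences. The procedure was tested on simulated data. Sequences were compared with Biopython 1.88 in Python 3.11.15, from RefSeq GRCm38.p6 promoters and GENCODE vM21 transcripts of GRCm38, and no coordinate was moved between builds.

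The 7 genes and the lists were chosen with earlier results of these data known. All 7 genes are described, with Dcaf7, every two-cell list gene over the filter, Dppa2, Dppa4, Trim28, Kdm1a, Rif1 and Pcgf6 with up to 6 more regulators that passed, by smallest p, up to 4 telomere genes with the largest change that passed, and the 5 nearest profiles. Alternatives were another pseudocount, other filters, another scaling, the highest entry of a symbol in place of the sum, a replicate block, fits of 2 groups and each library left out. The counts without Zscan4b were added after seeing the data. A gene of the telomere and recombination list is not reported here.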

Additional observations from a re-analysis of the deposited data

How the results depend on the processing

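The log2 ratio of summed Zscan4 FPKM between KO ESC and WT ESC was -1.78, and -1.97 to -1.61 with 1 library left out. The count of genes called between KO ESC and WT ESC was 33, and 15 with a replicate block, 3 in a fit of these 2 groups alone and 10 to 16 with 1 library left out. No label pairs same-numbered libraries. Their deviations from the group means correlated at -0.05 to 0.18 between groups, which does not show whether they shared a batch. Between KO NPC and WT NPC, 3648 genes were called, and 2281 to 2743 with 1 library left out. Regulators called there numbered 11, and 7 with median-ratio scaling, 7 in the fit of these 2 groups and 3 to 5 with 1 library left out. Other two-cell genes called in either direction between WT NPC and WT ESC numbered 10, where 9675 genes were called in all. With no filter they numbered 19, where 10579 genes were called in all. Between KO NPC and KO ESC they numbered 9. With a minimum of 5 FPKM they numbered 1 in wild type and 0 in knockout, but only Gm8994 of the list could then be tested.

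With 1 library left out, the sign of some differences that were not called turned. In stem cells Pramel6 ranged from -0.22 to 0.16 and Dppa2 from -0.095 to 0.067. In progenitors Dppa2 ranged from -0.15 to 0.034, Dppa4 from -0.082 to 0.12, Rif1 from -0.080 to 0.079 and Pcgf6 from -0.21 to 0.033. The cause was not tested. Named genes lost a call under 35 combinations of gene and alternative, all between KO NPC and WT NPC, while Rybp and Trp53 passed under all 11 alternatives. At this depth single Zscan4 copies in progenitors, and Zfp352 everywhere, rest on 3 or fewer implied fragments.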

Other observations

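Two-cell genes below the filter were counted as well. Of 30 such symbols of the list, 25 were above 0 in at least 1 stem cell library, and the mean was lower in KO ESC than in WT ESC for 21 and higher for 4. Among the 4, E330014E10Rik and D5Ertd577e did not exceed 2.5e-06 FPKM in any library. The 21 include members of the Usp17l and Tdpoz families, which may not be independent of each other. Among all 4362 genes below the filter and above 0 in stem cells, 54.9% had a lower mean in KO ESC and 45.1% a higher one. The 30 symbols summed to 3.23 and 3.32 FPKM in KO ESC, against 6.75 and 6.78 FPKM in WT ESC, and to 1.57 and 1.75 FPKM in KO NPC, against 2.71 and 1.90 FPKM in WT NPC. Both KO ESC sums were below both WT ESC sums.

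These examples were chosen after their values were seen, and all but Sp110 had a lower mean in KO ESC. Usp17lb, of a family of deubiquitinating enzymes, was listed at 0 in both KO ESC libraries, against 0.448 and 1.60 FPKM in WT ESC. Tmem92, a membrane protein gene, had 0.152 and 0.272 FPKM in KO ESC, against 0.455 and 0.482 FPKM in WT ESC. Tdpoz3, of a family with TRAF and POZ domains, had 0.208 and 0.0973 FPKM in KO ESC, against 0.597 and 0.450 FPKM in WT ESC. Dux was listed at 0 in every library except 1 WT ESC library, where it had 0.147 FPKM. Usp17le, of the same family as Usp17lb, overlapped, with 0.0553 and 0.466 FPKM in KO ESC, against 0.257 and 0.429 FPKM in WT ESC. Sp110, among the 4 with a higher mean in KO ESC, had 0.680 and 0.245 FPKM there, against 0.123 and 0.287 FPKM in WT ESC. No test was made on these genes.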
